A study of Homo sapiens with 6 samples.

Results

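The genes of HLA class I and class II antigen presentation were examined as a set of 32 among the 62703 gene IDs measured. They were chosen by symbol: 17 genes of the class I arm (heavy chains, β2-microglobulin, peptide transport and loading, immunoproteasome, peptide trimming and a regulator), 12 of the class II arm and the 3 subunits of the RFX complex, which serves both. Each of the 32 matched 1 ID in the count and TPM tables, and 30 passed the filter on low counts; HLA-DMB and HLA-DOA did not. The cells were H929 (NCI-H929), an established human multiple myeloma line of wild-type genotype per the labels, grown in RPMI-1640 with fetal bovine serum. The treated cells received 1 µM Mi-2, an inhibitor of the paracaspase MALT1, and the control cells DMSO, its solvent, both for 24 h. RNA was sequenced from 3 libraries of each treatment. A single dose, a single time and a single cell line were used, and the labels do not name separate cultures. The p-values therefore reflect the variation among these libraries, which may be technical.

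Class I molecules pair a heavy chain with β2-microglobulin and show peptides made in the cell, cut by the proteasome and carried into the endoplasmic reticulum by TAP, to CD8+ T cells and NK cells. Class II molecules pair an α and a β chain, travel with the invariant chain CD74 to endosomes and show peptides to CD4+ T cells. Transcription of class II genes needs the coactivator CIITA, which is present in B cells and is switched off as they become plasma cells under PRDM1, whereas class I genes stay on and use the related coactivator NLRC5. Both coactivators bind no DNA themselves and sit on RFX, CREB and NF-Y, which occupy the X and Y boxes of HLA promoters.

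Total estimated counts were 21938900 to 23756700 in Mi-2 libraries and 19980700 to 22651600 in DMSO libraries (to the nearest 100). Genes were called at an adjusted p under 0.05 in edgeR's quasi-likelihood test. By that rule 11.0% of the 16082 tested genes were called, 5.02% higher and 6.03% lower with Mi-2. DESeq2 called 15.6% and limma-voom 11.0% of the genes they tested, and 27.0% had an unadjusted edgeR p under 0.05. The share called by edgeR at the adjusted threshold was 3.14% without Mi-2 library 1, 3.86% without DMSO library 2 and 4.19% without DMSO library 3. Plasma cell markers were abundant, with PRDM1 at 110.4 to 144 TPM with Mi-2 and 94.8 to 133 TPM with DMSO. Of 11 B-cell markers 8 were under 1 TPM in all 6 libraries, among them PAX5, MS4A1 and CD22, and CD79B held most of the rest. The libraries differed in another way. HBG1, a red-cell gene, was listed at 0 in library 1 of both treatments and was at 8.79 and 12.9 TPM in Mi-2 libraries 2 and 3, against 8.75 and 12.4 TPM in DMSO libraries 2 and 3. Most class II genes differed between libraries in a like order, as described below, so the results of CIITA and CD74 are also given without both libraries numbered 1 or 3.

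Transcripts of the class I arm were abundant in all libraries, and 1 of its 17 genes passed the test. This was PSME2, a subunit of the proteasome activator PA28, which fell with Mi-2. None of the 17 was called higher by edgeR, with 2 higher at an unadjusted p under 0.05, 1 called by DESeq2 and 0 by limma-voom. The 1 lower call stands beside 6.03% of all tested genes called lower by edgeR. Lower genes numbered 6 at an unadjusted p under 0.05, 3 in DESeq2 and 1 in limma-voom. In DESeq2 1 was among the heavy chains and B2M and 2 in the immunoproteasome and activator, where 8.73% of all its tested genes were lower. The median log2 fold change of the 17 was -0.10, against 0.00 over all tested genes, and single genes ran from -0.37 for HLA-F to 0.31 for ERAP1. CPM ranges of the treatments did not overlap for 2 class I genes that were higher and 4 that were lower with Mi-2, where 15.7% and 16.6% of all tested genes had separate ranges in those directions. The 4 were HLA-F, PSMB8, PSME1 and PSME2.

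**Figure D1:**
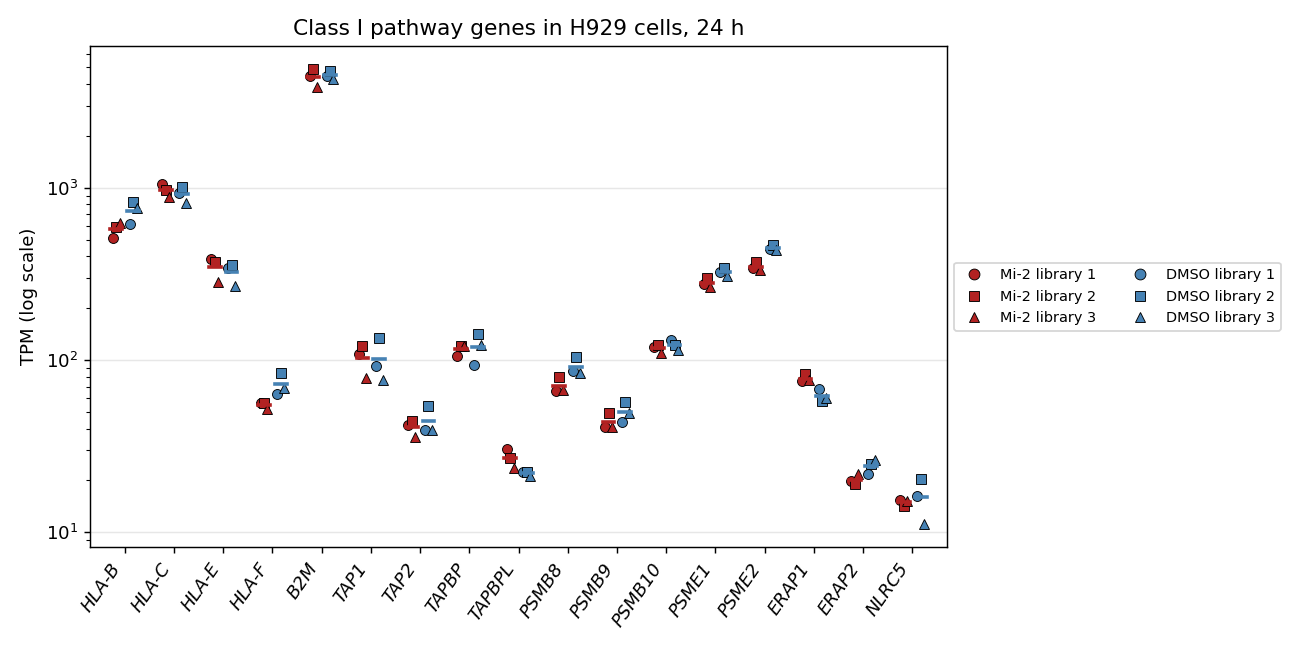
Levels of the 17 class I genes in TPM (log axis) in the 3 Mi-2 libraries (red) and the 3 DMSO libraries (blue), with a shape for each library number and a dash at the mean of each treatment. B2M lies highest, between 3841 and 4913 TPM, PSME2 is lower in each Mi-2 library than in any DMSO library, and most genes overlap.

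Among the heavy chains, HLA-C had 1051, 975 and 885 TPM in Mi-2 libraries 1, 2 and 3, against 938, 1006 and 819.7 TPM in DMSO libraries 1, 2 and 3. The groups overlapped, and the log2 fold change was 0.09 ± 0.09 (SE, n = 3 each; edgeR adjusted p = 0.577). HLA-B, the other abundant classical heavy chain here, had 513, 590.3 and 622 TPM with Mi-2 and 615, 823 and 762 TPM with DMSO. Mi-2 library 3 was above DMSO library 1, and the difference of -0.33 ± 0.13 did not pass (unadjusted p = 0.0301, edgeR adjusted p = 0.134). HLA-B was also highest in library 3 and lowest in library 1 of each treatment on the CPM scale. HLA-E, the ligand of the NK receptor CD94/NKG2A, had 387, 372 and 285 TPM with Mi-2 and 342, 357 and 270.2 TPM with DMSO (0.15 ± 0.13, edgeR adjusted p = 0.491). HLA-F, which is retained largely inside the cell, had 56.4, 56.1 and 51.9 TPM with Mi-2, against 63.3, 84.5 and 68.7 TPM with DMSO. Its Mi-2 values lay below all its DMSO values, but the change of -0.37 ± 0.11 missed the threshold (edgeR adjusted p = 0.0572). It was called without DMSO library 1 (-0.46, adjusted p = 0.0285), but its edgeR adjusted p reached 0.197 with another library left out.

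B2M, the invariant light chain, was the most abundant of the 32 genes, with 4467, 4913 and 3841 TPM in Mi-2 libraries and 4466, 4796 and 4259 TPM in DMSO libraries. Its log2 fold change was -0.02 ± 0.11, with a 95% interval from -0.26 to 0.22. The 4 heavy chains together summed to 2008, 1994 and 1844 TPM with Mi-2 and 1958, 2271 and 1921 TPM with DMSO, so the ranges overlapped. The annotated models of HLA-B (GENCODE 29 on GRCh38, chromosome 6, 31269491 to 31357188, minus strand) and HLA-C (31268749 to 31272130, minus strand) overlap, so the division of reads between them is uncertain.

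In peptide transport and loading, TAP1, a subunit of the peptide transporter, had 108, 120.2 and 78.7 TPM with Mi-2 and 92.8, 135 and 77.0 TPM with DMSO (-0.01 ± 0.19). It was the class I gene with the widest spread within treatments, and library 3 was the lowest of each treatment. Its partner TAP2 had mean levels of 40.8 ± 4.45 TPM with Mi-2 and 44.2 ± 8.67 TPM with DMSO (SD, n = 3 each), a log2 fold change of -0.14 ± 0.14. The bridging protein tapasin, TAPBP, averaged 115 ± 8.59 and 119 ± 23.5 TPM with Mi-2 and DMSO (-0.08 ± 0.14). TAPBPL encodes the tapasin-related peptide editor TAPBPR. It had 30.4, 27.1 and 23.6 TPM with Mi-2, all above the 22.5, 22.3 and 21.3 TPM with DMSO, but was not called (0.28 ± 0.10, edgeR adjusted p = 0.0984).

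The immunoproteasome and its activator PA28 gave 5 negative log2 fold changes of 5, from -0.35 to -0.03. PSME2, the PA28β subunit (chromosome 14, 24143362 to 24147570, minus strand), had 341, 372 and 334 TPM in Mi-2 libraries, against 444, 468 and 433 TPM in DMSO libraries. The groups were apart, with a log2 fold change of -0.35 ± 0.09 (1.27-fold lower, 95% interval -0.55 to -0.14, edgeR adjusted p = 0.0387). The call held without Mi-2 library 2 (adjusted p = 0.0370). It was lost without Mi-2 library 1 (0.149), Mi-2 library 3 (0.0783), DMSO library 1 (0.0649), DMSO library 2 (0.132) or DMSO library 3 (0.105), with log2 fold changes of -0.37 to -0.28 in these 5 fits. PSME1, the PA28α subunit, had 275, 299 and 264 TPM with Mi-2, all below the 325, 344 and 306 TPM with DMSO, but was not called (-0.20 ± 0.08, edgeR adjusted p = 0.157). The TPM ratio of PSME2 to PSME1 was 1.24, 1.24 and 1.26 with Mi-2 and 1.37, 1.36 and 1.41 with DMSO, so the ratio was lower in every Mi-2 library.

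Of the catalytic subunits, PSMB8 (β5i) had 66.4, 80.1 and 66.9 TPM with Mi-2 and 86.9, 104 and 83.7 TPM with DMSO. All Mi-2 values lay below the DMSO values, and the change of -0.34 ± 0.11 did not pass (edgeR adjusted p = 0.0722), though it did without Mi-2 library 2 (-0.43, adjusted p = 0.0443). With another library left out the edgeR adjusted p of PSMB8 reached 0.245. PSMB9 (β1i) averaged 43.7 ± 4.58 TPM with Mi-2 and 50.0 ± 6.56 TPM with DMSO (-0.19 ± 0.12), and PSMB10 (β2i) averaged 118 ± 6.73 and 123 ± 7.76 TPM (-0.03 ± 0.08). The standard proteasome subunits that these replace were not called, nor were the other members of their list of 6 (1 higher and 1 lower at an unadjusted p under 0.05, and 0 higher and 1 lower in DESeq2): PSMB5 (-0.11 ± 0.08), PSMB6 (0.21 ± 0.09) and PSMB7 (0.03 ± 0.08). The TPM ratio of PSMB8 to its counterpart PSMB5 was 0.783, 0.880 and 0.744 with Mi-2 and 0.915, 0.989 and 0.904 with DMSO. The ratio of PSMB10 to PSMB7 was 0.724, 0.722 and 0.681 with Mi-2 and 0.767, 0.731 and 0.728 with DMSO. Both ratios were apart and lower with Mi-2, that of PSMB10 only narrowly (0.724 against 0.728). For scale, 32.3% of all tested genes had separate CPM ranges in either direction. The ratio of PSMB9 to PSMB6 ran from 0.240 to 0.304 with Mi-2 and from 0.300 to 0.418 with DMSO, which overlapped. PSMB8 and PSMB9, and PSMB9 and TAP1, overlap on opposite strands in GENCODE 29. Whether counting used strand is not given in the sources used here, so reads of these neighbours may be mixed.

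Peptides are trimmed in the endoplasmic reticulum by the aminopeptidases ERAP1 and ERAP2, whose changes had opposite signs. ERAP1 had 75.2, 82.5 and 76.1 TPM with Mi-2, above the 67.9, 58.0 and 60.0 TPM with DMSO (0.31 ± 0.09), and narrowly missed the threshold (edgeR adjusted p = 0.0550). Without Mi-2 library 3 it was called (0.37, adjusted p = 0.0429), as it was with upper-quartile scaling (0.33, adjusted p = 0.0371) and in DESeq2 (0.30, adjusted p = 0.0209). With another library left out the edgeR adjusted p of ERAP1 reached 0.189. ERAP2 had 19.9, 19.1 and 21.7 TPM with Mi-2 and 21.9, 24.8 and 26.4 TPM with DMSO (-0.28 ± 0.12, edgeR adjusted p = 0.164). NLRC5, the class I coactivator, had 15.4, 14.2 and 15.2 TPM with Mi-2 and 16.3, 20.4 and 11.1 TPM with DMSO, where the DMSO libraries surrounded the Mi-2 ones (-0.10 ± 0.14).

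Promoter sequences were read from RefSeq (GRCh38.p14) for 28 of the 32 genes, with no window for HLA-E, NLRC5, CIITA and HLA-DRA. The 250 bases before each start were searched on both strands for 4 sets of letters. GGGATTCCC, the letters of a κB site bound by NF-κB, was found in 0.362% of 35116 windows and in 1 member, HLA-B. GAAANNGAA, from the core of the interferon-stimulated response element (ISRE), was found in 6.88% of windows and in 13 members. These were 8 class I genes (HLA-F, B2M, TAP1, TAP2, TAPBP, PSMB10, PSME2 and ERAP2), 4 class II genes (HLA-DRB1, HLA-DPA1, HLA-DMB and CD74) and RFX5. Overlapping matches were counted as separate positions. The bases just before the starts of HLA-B (chr6:31357180-31357359, minus strand) and PSME2 (chr14:24146611-24146790, minus strand) are shown because the first carries the κB letters and the second is the called gene. Capitals mark the κB letters at -176 to -168 and the Y box core, in reverse complement, at -56 to -51 in HLA-B, and the ISRE letters at -28 to -20 in PSME2.
HLA-B: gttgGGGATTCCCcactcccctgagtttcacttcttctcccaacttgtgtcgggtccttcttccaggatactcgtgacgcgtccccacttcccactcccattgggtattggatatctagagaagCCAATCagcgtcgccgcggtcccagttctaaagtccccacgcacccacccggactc
PSME2: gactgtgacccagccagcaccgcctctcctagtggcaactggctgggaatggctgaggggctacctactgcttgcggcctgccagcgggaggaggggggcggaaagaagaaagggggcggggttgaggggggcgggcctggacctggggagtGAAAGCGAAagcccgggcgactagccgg
The letters describe the windows and do not show that a factor was bound.

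The class II arm behaved differently. In 9 of its 10 tested genes, all but HLA-DOB, levels were lowest in library 1 of each treatment, intermediate in library 2 and highest in library 3, and none of the 10 tested class II genes was called in either direction by edgeR, DESeq2 or limma-voom. At an unadjusted p under 0.05 in edgeR 0 were higher and 1, CIITA, was lower. Without DMSO library 1 edgeR called CIITA lower. All 10 log2 fold changes were negative, with a median of -1.23. Summed over the 11 class II genes other than CIITA, levels were 8.77, 20.7 and 127 TPM in Mi-2 libraries 1, 2 and 3 and 11.7, 58.9 and 279.7 TPM in DMSO libraries 1, 2 and 3. The treatments overlapped widely, since library 3 of each exceeded library 1 of both by far more than the treatments differed. At each library number, though, the sum was lower with Mi-2 than with DMSO. With the library number as a term in edgeR, most tested class II genes were called lower, as given with the other settings below. The labels do not pair the libraries. In bulk RNA, fewer cells with class II transcripts and less transcript per cell cannot be told apart.

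**Figure D2:**
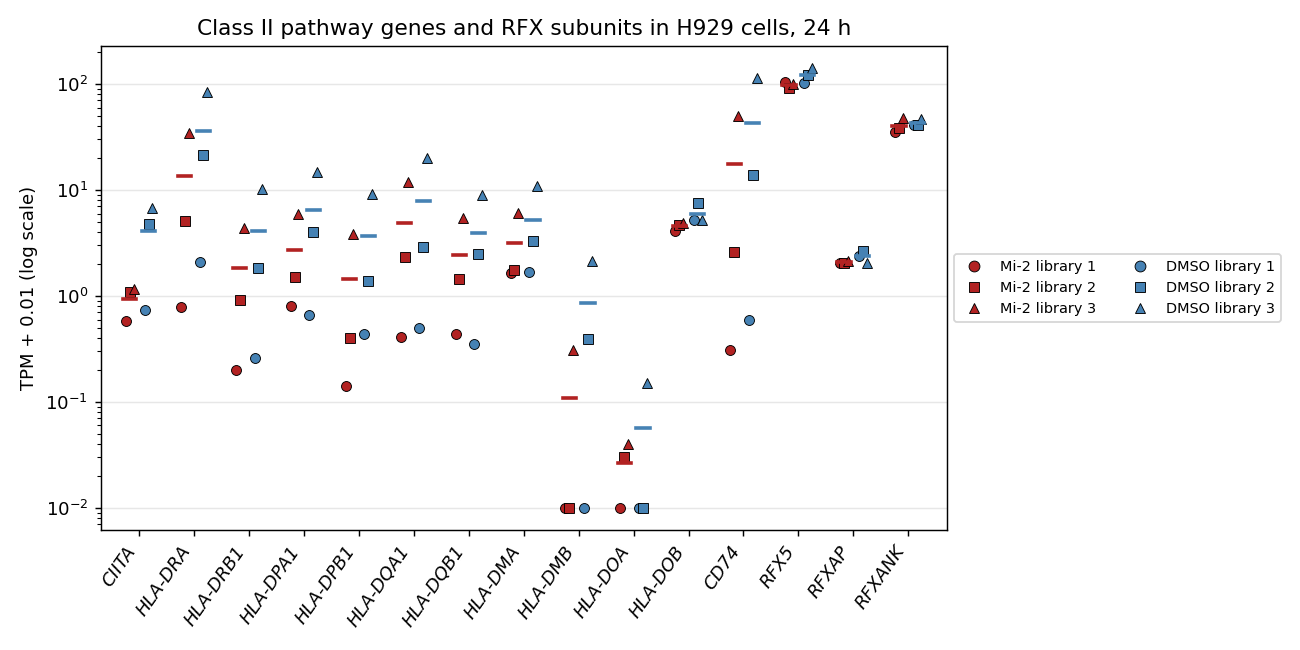
Levels of the 12 class II genes and 3 RFX subunits in TPM plus 0.01 (log axis) in the 3 Mi-2 libraries (red) and the 3 DMSO libraries (blue), with a shape for each library number and a dash at the mean of each treatment. CD74 runs from 0.300 to 50.4 TPM with Mi-2 and from 0.590 to 113 TPM with DMSO, while HLA-DOB and the RFX subunits stay within narrow ranges.

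CIITA, the class II coactivator (chromosome 16, 10866222 to 10943021, plus strand), had 0.570, 1.07 and 1.15 TPM with Mi-2 and 0.730, 4.80 and 6.82 TPM with DMSO. DMSO libraries 2 and 3 were above all Mi-2 libraries and DMSO library 1 lay among them. The log2 fold change was -1.85 ± 0.57 (95% interval -3.13 to -0.57), the largest in size of the 30 tested members, and did not pass over all genes (unadjusted p = 0.00938, edgeR adjusted p = 0.0679). It was called without DMSO library 1 (-2.30, adjusted p = 0.00868) and without both libraries numbered 1 (-2.03, adjusted p = 0.0352), a choice made after the values were seen. It was not called without both libraries numbered 3 (-1.58, adjusted p = 0.159), and its log2 fold change was -1.15 without DMSO library 3.

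Among the classical chains, HLA-DRA had 0.780, 5.09 and 34.5 TPM with Mi-2 and 2.07, 21.2 and 85.0 TPM with DMSO. The highest library exceeded the lowest 44.2-fold with Mi-2 and 41.1-fold with DMSO, and the log2 fold change between treatments was -1.43 ± 1.17 (95% interval -4.04 to 1.18, edgeR adjusted p = 0.478). HLA-DRB1, its β chain partner, had 0.19, 0.910 and 4.37 TPM with Mi-2 and 0.250, 1.81 and 10.3 TPM with DMSO (-1.21 ± 1.10). Reads of HLA-DRB1 can be shared with its close copy HLA-DRB5, which is not a member and had 0.110, 0.770 and 3.27 TPM with Mi-2 and 0.0600, 1.5 and 7.44 TPM with DMSO. Both genes had the same order of libraries. In library 1 the chain genes rested on few reads: estimated counts there were 14 with Mi-2 and 34 with DMSO for HLA-DRA, and 3 and 4 for HLA-DRB1.

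HLA-DPA1 had 0.790, 1.49 and 5.92 TPM with Mi-2 and 0.650, 4.03 and 14.7 TPM with DMSO (-1.34 ± 0.97). HLA-DPB1, which overlaps HLA-DPA1 on the opposite strand, had 0.130, 0.390 and 3.81 TPM with Mi-2 and 0.430, 1.38 and 9.16 TPM with DMSO (-1.57 ± 1.20). HLA-DQA1 had 0.400, 2.32 and 11.9 TPM with Mi-2 and 0.490, 2.91 and 20 TPM with DMSO (-0.81 ± 1.04). In HLA-DQB1 the values were 0.430, 1.45 and 5.47 TPM with Mi-2 and 0.340, 2.48 and 8.98 TPM with DMSO (-0.74 ± 0.97). For each of these 4 chains library 3 was the highest of its group in both treatments, and the edgeR adjusted p lay between 0.415 and 0.676.

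CD74, the invariant chain that fills the class II groove until the endosome (chromosome 5, 150401637 to 150412929, minus strand), had 0.300, 2.58 and 50.4 TPM with Mi-2 and 0.590, 13.9 and 113 TPM with DMSO. Its estimated counts were 4, 54 and 1042 with Mi-2 and 7, 254 and 2127 with DMSO. The highest library exceeded the lowest 168-fold with Mi-2 and 192-fold with DMSO, while the treatments differed by -1.24 ± 1.44 on the log2 scale (95% interval -4.47 to 1.99, edgeR adjusted p = 0.630). Without DMSO library 3 the sign turned (1.39, adjusted p = 0.650). Without both libraries numbered 3 the value was -2.19 (adjusted p = 0.374), and without both libraries numbered 1 it was -1.24 (adjusted p = 0.623).

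The peptide editor HLA-DM and its inhibitor HLA-DO were low. HLA-DMA had 1.65, 1.76 and 6.03 TPM with Mi-2 and 1.67, 3.31 and 10.8 TPM with DMSO (-0.73 ± 0.68, edgeR adjusted p = 0.542). HLA-DMB was listed at 0, 0 and 0.300 TPM with Mi-2 and at 0, 0.380 and 2.14 TPM with DMSO. HLA-DOA did not exceed 0.0300 TPM with Mi-2 and 0.140 TPM with DMSO. Neither of these was tested. HLA-DOB (chromosome 6, 32812763 to 32820466, minus strand) was the exception of the arm in its order of libraries, with 4.10, 4.68 and 4.84 TPM with Mi-2 and 5.23, 7.47 and 5.19 TPM with DMSO. Its Mi-2 values were all below its DMSO values, without passing the test (-0.38 ± 0.19, unadjusted p = 0.0795, edgeR adjusted p = 0.245). Its levels in both libraries numbered 1 exceeded those of every other class II gene there.

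**Figure D3:**
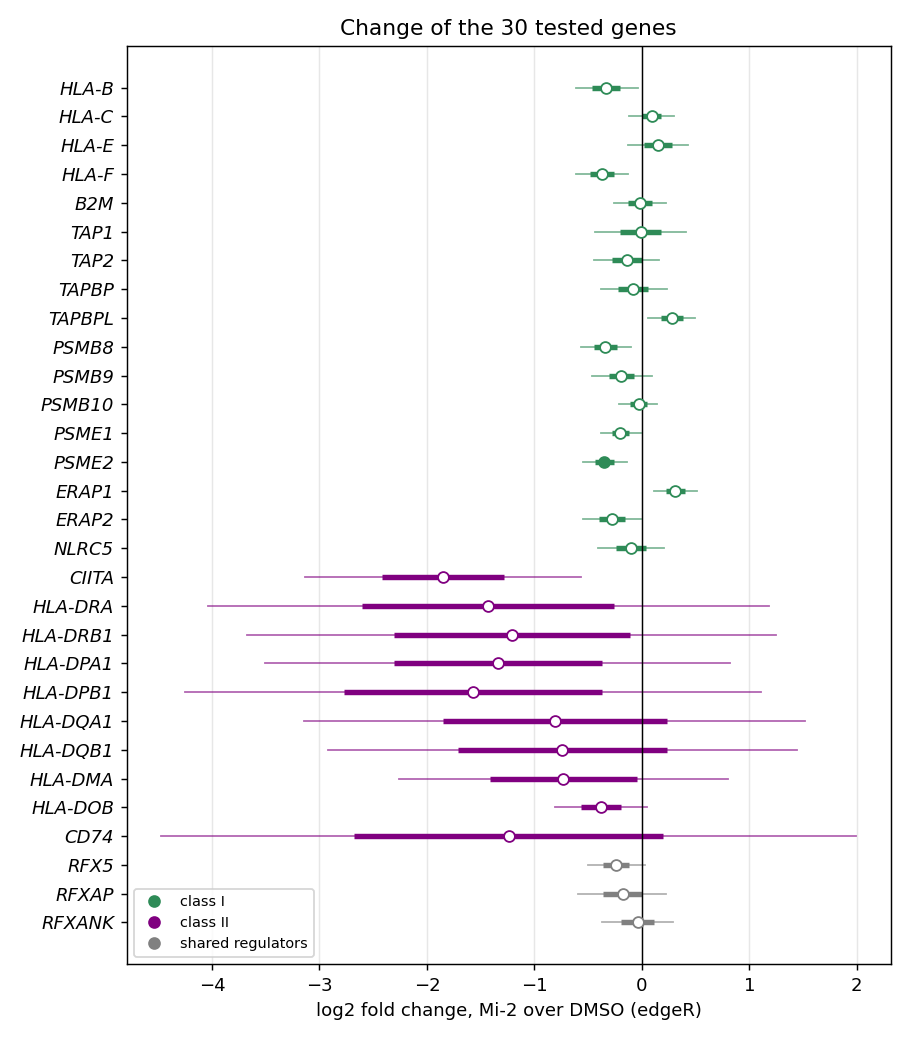
Log2 fold changes of Mi-2 over DMSO for the 30 tested members (points), with SE (thick bars) and 95% interval (thin bars) from edgeR; the filled point is the called gene. Class I genes lie between -0.37 and 0.31, whereas class II genes other than HLA-DOB lie between -1.85 and -0.73 with wide intervals that include 0 except for CIITA.

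The spread within treatments set the class II arm apart from the class I arm. It was measured as the SD of log2(CPM + 0.5) around the treatment means and ranked among the 12686 tested genes whose average log2 CPM was 1 or more. Their median SD was 0.15 and the 99th percentile 0.65. CD74 had the widest spread of all 12686, at 3.25, HLA-DRA ranked 3rd, and HLA-DQA1, HLA-DPA1, HLA-DQB1, HLA-DRB1 and HLA-DPB1 filled ranks 7 to 11. CIITA ranked 37 and HLA-DMA 39, so 9 of the 10 class II genes lay above the 99th percentile, against 0 of 17 class I genes, whose median was 0.15. HLA-DOB ranked 4172. These ranks describe the libraries and carry no test.

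**Figure D4:**
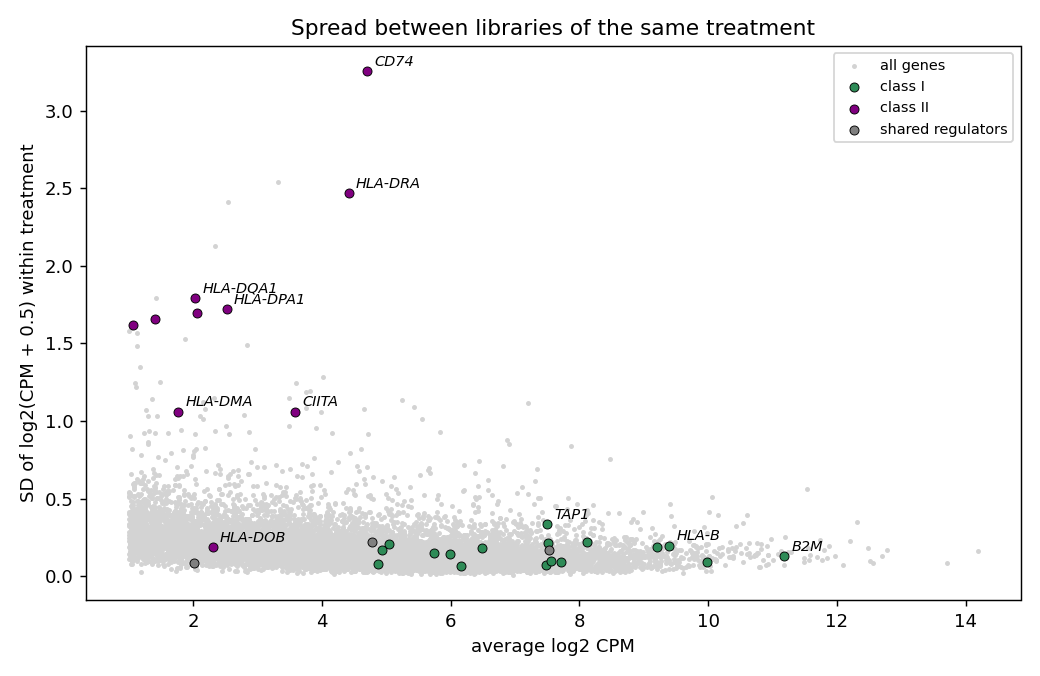
SD of log2(CPM + 0.5) within treatments against average log2 CPM for the 12686 tested genes averaging 1 or more (grey), with class I, class II and RFX genes coloured. CD74 and HLA-DRA lie at 3.25 and 2.47, far above the grey cloud, while class I genes lie between 0.07 and 0.33.

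Library 3 was the highest and library 1 the lowest in both treatments for 9 of the 10 tested class II genes, for 2 of 17 class I genes (HLA-B and ERAP2) and for 2 of 3 RFX subunits, against 6.37% of all tested genes. Library 3 was instead the lowest in both treatments for 6 of 17 class I genes, against 15.2% of all tested genes. Class II levels were in no fixed proportion to CIITA: the TPM ratio of HLA-DRA to CIITA was 1.37, 4.76 and 30.0 with Mi-2 and 2.84, 4.42 and 12.5 with DMSO. In library 3 CIITA was 1.15 TPM with Mi-2 and 6.82 TPM with DMSO. The ratio of CD74 to HLA-DRA was 0.385, 0.507 and 1.46 with Mi-2 and 0.285, 0.657 and 1.33 with DMSO, so it was highest in library 3 of each treatment.

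Summed red-cell and NF-κB transcripts were also lowest in library 1 of each treatment. From DMSO library 2 to DMSO library 3 the NF-κB sum fell, while most class II genes rose. Most genes of the red-cell list, HBG1 among them, rose there too, whereas HBD, HBE1, TAL1 and SLC4A1 fell. The 18 red-cell lineage genes, a list chosen after their values had been seen, summed to 37.3, 91.8 and 108 TPM with Mi-2 and 40.8, 95.1 and 95.8 TPM with DMSO. Within that sum HBD, a hemoglobin chain, had 32.4, 62.9 and 48.9 TPM with Mi-2 and 36.3, 61.8 and 40.5 TPM with DMSO, highest in library 2 of both treatments. Of the 18, 11, 3 and 4 were listed at 0 in Mi-2 libraries 1, 2 and 3, and 13, 2 and 3 in DMSO libraries 1, 2 and 3, with AHSP and EPB42 at 0 in all. The NF-κB subunits and inhibitors (10 genes) summed to 200.0, 271 and 274 TPM with Mi-2 and 205, 458 and 355 TPM with DMSO, lowest in library 1 of each treatment. The part of these transcripts in the class II result was not tested. Of 13 myeloid and dendritic cell markers 12 were under 1 TPM in all libraries, with AIF1 and CLEC10A at 0, and the list summed to 1.32, 3.46 and 3.07 TPM with Mi-2 and 1.08, 1.16 and 1.32 TPM with DMSO. The B-cell markers summed to 85.9, 82.6 and 66.7 TPM with Mi-2 and 59.6, 52.2 and 38.4 TPM with DMSO, lowest in library 3, where class II genes were highest. Of 10 T and NK cell markers 8 were under 1 TPM in all libraries, with CD3D and CD8A at 0, and the sums of 42.8 to 48.2 TPM with Mi-2 and 30.0 to 35.2 TPM with DMSO were mostly CD3E.

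**Figure D5:**
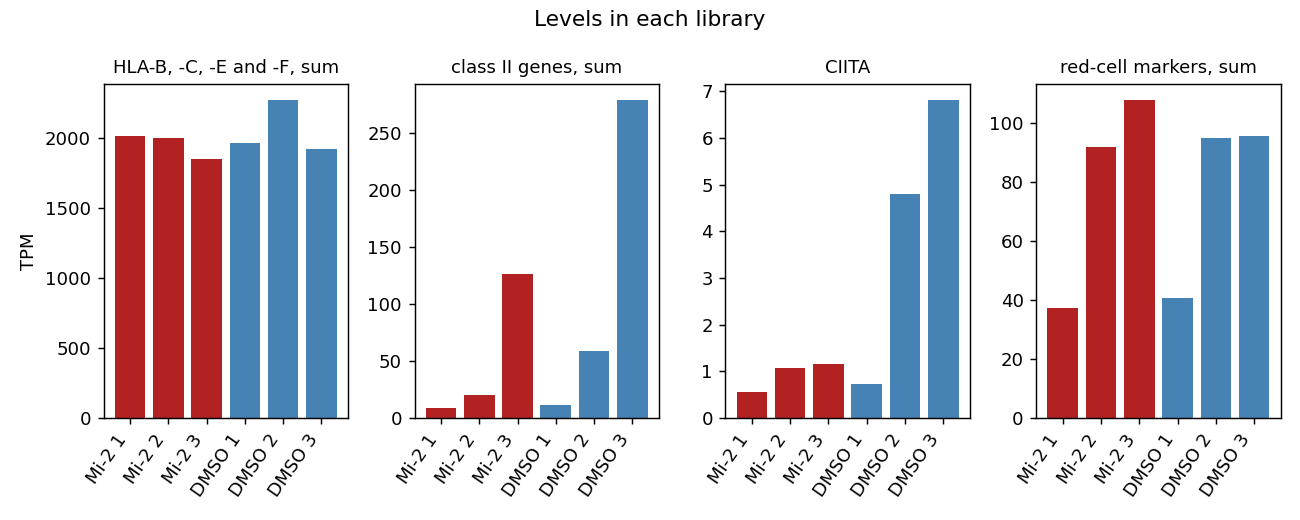
Levels in TPM in each library for the summed heavy chains HLA-B, -C, -E and -F, the 11 summed class II genes other than CIITA, CIITA, and the 18 summed red-cell genes, with Mi-2 in red and DMSO in blue. Class II sums reach 127 and 279.7 TPM in the libraries numbered 3, red-cell sums are lowest in the libraries numbered 1, and heavy chain sums stay between 1844 and 2271 TPM.

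The RFX subunits, without which class II genes are not transcribed, were present throughout. RFX5, the large DNA-binding subunit, had 104, 91.0 and 101 TPM with Mi-2 and 103, 122 and 142 TPM with DMSO (-0.24 ± 0.12, edgeR adjusted p = 0.230). RFXANK averaged 40.6 ± 6.11 TPM with Mi-2 and 42.8 ± 3.26 TPM with DMSO (-0.04 ± 0.15). RFXAP, the least abundant of the 3, averaged 2.07 ± 0.0723 and 2.36 ± 0.286 TPM (-0.18 ± 0.18). None was called by edgeR, DESeq2 or limma-voom, 0 had an unadjusted p under 0.05, and no subunit had separate ranges.

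In the promoter windows, CTGATGATG, the core of the X box bound by RFX and CREB, was found in 0.222% of all windows and in 4 members, HLA-DRB1, HLA-DMA, HLA-DMB and HLA-DOB. GATTGG, the core of the Y box bound by NF-Y, was found in 14.1% of windows and in 12 members. Both stood together in 0.037% of windows, and these included the same 4 members. HLA-DRB1 and HLA-DMA, which differed between libraries, and HLA-DOB, which differed little, are shown because all 3 carry both cores upstream of the start. They lie on the minus strand at chr6:32589849-32590028, chr6:32953098-32953277 and chr6:32817003-32817182. Capitals mark the X box core, at -74 to -66 in HLA-DRB1, -108 to -100 in HLA-DMA and -125 to -117 in HLA-DOB, followed by the Y box core, which HLA-DOB also holds in reverse complement.
HLA-DRB1: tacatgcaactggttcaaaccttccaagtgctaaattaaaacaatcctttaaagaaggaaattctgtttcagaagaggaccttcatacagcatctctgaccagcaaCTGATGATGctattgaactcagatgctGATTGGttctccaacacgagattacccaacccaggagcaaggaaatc
HLA-DMA: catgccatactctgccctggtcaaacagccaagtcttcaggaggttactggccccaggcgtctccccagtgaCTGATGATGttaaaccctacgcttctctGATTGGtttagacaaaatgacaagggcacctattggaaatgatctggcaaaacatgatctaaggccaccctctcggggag
HLA-DOB: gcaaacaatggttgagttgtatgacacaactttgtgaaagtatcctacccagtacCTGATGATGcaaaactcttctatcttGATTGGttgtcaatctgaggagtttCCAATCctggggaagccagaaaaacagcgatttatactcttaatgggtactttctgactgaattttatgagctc
The start is the first base after the last letter shown.

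Among 148 other genes of the pathway and its regulation, in 12 lists, 109 were tested, 11 were higher and 8 lower with Mi-2, where 5.02% of all tested genes were higher and 6.03% lower, and the median log2 fold change was 0.01. The count of higher genes was 5 without Mi-2 library 1 or DMSO library 2 and 6 without DMSO library 3, and that of lower genes was 4 without Mi-2 library 1 and 5 without DMSO library 2. These background shares also stand beside the count of each list below. The 14 genes of class I folding and peptide supply had 3 higher and 1 lower. CALR, which with PDIA3 holds the class I heavy chain in the loading complex, had 1669, 1376 and 1387 TPM with Mi-2 and 1048, 883 and 869 TPM with DMSO (0.67 ± 0.11, edgeR adjusted p = 0.00697). PDIA3 had 648, 636 and 519 TPM with Mi-2 and 398, 398 and 302 TPM with DMSO (0.71 ± 0.11, edgeR adjusted p = 0.00668). The Mi-2 values of both lay above all DMSO values. HM13, the signal peptide peptidase that releases peptides bound by HLA-E, rose by 0.57 ± 0.13 (edgeR adjusted p = 0.0258), a call lost without Mi-2 library 1 or 2 or DMSO library 2 or 3 (adjusted p up to 0.0954). THOP1, a cytosolic peptidase that degrades proteasome products, had 88.4, 92.5 and 96.6 TPM with Mi-2, below the 154, 169 and 145 TPM with DMSO (-0.73 ± 0.09, edgeR adjusted p = 0.00314). The calls of CALR, PDIA3 and THOP1 held with each of the 6 libraries left out in turn.

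Of 13 genes of class II peptide supply and turnover, 2 were higher and none lower (2 lower at an unadjusted p under 0.05, 0 by DESeq2 and limma-voom). The lysosomal protease CTSD had 326, 247 and 248 TPM with Mi-2 and 189.7, 155 and 129 TPM with DMSO (0.79 ± 0.14, edgeR adjusted p = 0.00925). MARCHF8, a ubiquitin ligase of membrane proteins, rose by 0.46 ± 0.12 (edgeR adjusted p = 0.0374), a call lost without Mi-2 library 1 or 2 or DMSO library 2 or 3 (up to 0.143). Of the 15 X and Y box factors and chromatin regulators, EZH2 and SUZ12, subunits of the H3K27 methyltransferase PRC2, were lower and none was higher (0 at an unadjusted p under 0.05, by DESeq2 or by limma-voom). EZH2 had 29.6, 28.0 and 33.7 TPM with Mi-2, below the 47.3, 47.6 and 40.8 TPM with DMSO (-0.58 ± 0.09, edgeR adjusted p = 0.00589). SUZ12 changed by -0.42 ± 0.08 (edgeR adjusted p = 0.0110), which was 0.0543 without Mi-2 library 1.

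In the list of interferon receptors, JAK-STAT factors and IRFs, 17 of 18 genes were tested, with 1 higher and 1 lower. IRF1, an activator of class I and immunoproteasome genes, had 74.1, 67.8 and 47.5 TPM with Mi-2 and 96.3, 102 and 57.9 TPM with DMSO (-0.34 ± 0.08, edgeR adjusted p = 0.0241). Library 3 of each treatment was the lowest in TPM and the TPM ranges overlapped, while the CPM ranges were apart. The call was lost without any 1 library except Mi-2 library 3 (adjusted p up to 0.0886). JAK2 rose by 0.47 ± 0.11 (edgeR adjusted p = 0.0243), a call lost in the same 5 fits (up to 0.0879). Of the 10 NF-κB subunits and inhibitors none was called in either direction by edgeR, DESeq2 or limma-voom (0 higher and 3 lower at an unadjusted p under 0.05), with 9 negative log2 fold changes and a median of -0.22. The 6 tested relatives among other presenting molecules had 1 higher, MR1 (0.40 ± 0.10, edgeR adjusted p = 0.0316), which presents vitamin B metabolites. MR1 was likewise called without Mi-2 library 3 and in no other fit that left out 1 library (up to 0.106). The 1 lower gene of that list, CD1D, was outside the rule for naming genes because of its low level and is named after its values were seen. It had 0, 0.160 and 0.0200 TPM with Mi-2 and 0.310, 0.390 and 0.150 TPM with DMSO (edgeR adjusted p = 0.0153, and 0.0628 without Mi-2 library 1). It passed the filter on low counts through the DMSO libraries alone, so its direction was set by the filter and its call supports nothing.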

How the data were processed

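RNA-seq of 6 H929 libraries was used, 3 per treatment, grouped by the treatment label. The authors deposited a table of estimated counts, partly fractional and unscaled, and a table of TPM values, which correct for gene length. Per the submitters' processing notes fastp 0.19.5, HISAT2 2.1.0, StringTie 2.1.0, RSEM 1.3.3 and the build GRCh38.p13 were used, without stated roles. The RNA selection and strandedness were not given in the sources used here. Reads that fit near-identical genes are divided by estimation.

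Both tables hold 62703 IDs, of which 62625 were named from a table of IDs and symbols and a further 72 from GENCODE 29, which holds 58279 of them. Coordinates are those of GENCODE 29 on GRCh38 and may differ from the annotation counted on.

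Estimated counts were rounded, filtered with filterByExpr (minimum count 10, total 15), scaled by TMM and tested in edgeR 4.0.16 under R 4.3.3 by quasi-likelihood, with Benjamini-Hochberg adjustment over all 16082 tested genes and a threshold of 0.05. SE and 95% intervals come from that fit. The biological coefficient of variation was 14.2%. Library pairs within a treatment differed by a chi-square of 15.1 to 21.2 per degree of freedom, and none was merged with another. TPM was used for levels and ratios. The test was checked on simulated counts. Alternatives were DESeq2 1.42.0, limma-voom and limma on log2 TPM (limma 3.58.1), other scalings and filters, the library number as a term, and left-out libraries.

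The members, the 12 other gene lists (class I folding and peptide supply, standard proteasome subunits, class II peptide supply and turnover, interferon and JAK-STAT factors, X and Y box factors and chromatin, NF-κB, plasma cell, B-cell, recognition ligands, other presenting molecules, T and NK cells, myeloid cells) and the tests were chosen with earlier results of these data known. The red-cell list and the fits without both libraries of a number were chosen after the values were seen. Genes named were all members, up to 4 called genes in each direction from each list (average log2 CPM 1 or more), and IRF1, PRDM1, CALR, PDIA3, PSMB5, PSMB6, PSMB7 and EZH2. A gene that the rule also named is not reported here. Members at an estimated count of 0 or a few reads are limited by depth. The promoter letters were also chosen with values in view. A first search used κB and ISRE letters 1 base longer, and both were shortened after its matches had been seen, because of a limit on how sequences could be written down and not because of the matches. The shorter letters match more windows, and more members hold the ISRE letters than in the first search, while HLA-B was the one κB match in both.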

Additional observations from a re-analysis of the deposited data

How the results depend on the processing

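The main counts were 808 genes higher and 969 lower over all genes, 0 and 1 in the class I arm, 0 and 0 in the class II arm and among RFX subunits, and 11 and 8 over the pathway lists. Without a filter on low counts they were 1221 and 1541 over all genes, 1 and 4 in class I, 9 lower in class II and 19 lower over the lists. Without both libraries numbered 3 they were 280 and 434 over all genes, 0 lower in class I and 7 and 4 over the lists, and without both numbered 1 they were 165 and 176, 0 lower in class I, 1 lower in class II and 4 and 5. Limma on log2(TPM + 1) gave 229 and 381 over all genes and 5 and 4 over the lists, on log2(TPM + 0.1) 249 and 398, with 5 and 4, and on log2(TPM + 1) with no TPM filter 0 and 0 over all genes, 0 lower in class I and 0 and 0 over the lists. Class I had 1 higher gene with upper-quartile scaling, with the filter of 1 CPM and in DESeq2, which also had 3 lower. With 1 library left out, counts ran from 216 to 715 and 302 to 866 over all genes, 0 to 1 and 0 to 2 in class I, 0 to 2 lower in class II (2 without DMSO library 1, where CIITA was called and HLA-DMB passed the filter through DMSO libraries 2 and 3 alone, so that its direction was set by the filter), 5 to 10 and 4 to 12 over the lists. The cause of these shifts was not tested beyond the fewer samples or genes.

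Same-numbered libraries of the treatments had correlations of their deviations from the treatment means of 0.478, 0.0753 and 0.304 for numbers 1, 2 and 3. Not every value exceeded 0.1, so the numbers were not taken to pair the libraries, although each library correlated best with its own number, a hint from the data and not from the design. With the library number as a block, 1791 genes were higher and 2035 lower over all genes, 1 and 6 in class I, 8 lower in class II, 1 lower among RFX subunits and 20 and 24 over the lists. The blocked log2 fold changes were -1.68 for CIITA (edgeR adjusted p = 0.00130), -1.58 for HLA-DRA (0.000210) and -1.51 for CD74 (0.00101). With that term the biological coefficient of variation was 9.63%, against 14.2% without it.

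With 1 library left out in turn, the lowest and highest log2 fold changes of the members whose sign turned were -3.64 and 0.28 for HLA-DRA, -2.95 and 0.83 for HLA-DRB1, -2.80 and 0.25 for HLA-DPA1, -4.23 and 0.70 for HLA-DPB1, -2.50 and 0.78 for HLA-DQA1, -2.21 and 0.74 for HLA-DQB1, -1.60 and 0.45 for HLA-DMA and -4.84 and 1.39 for CD74, the lowest without Mi-2 library 3 and the highest without DMSO library 3. They were -0.17 and 0.09 for RFXANK, -0.11 and 0.07 for B2M, -0.16 and 0.22 for TAP1, -0.22 and 0.01 for TAPBP and -0.24 and 0.04 for NLRC5. None of these was called with either sign. Without Mi-2 library 3, HLA-DPB1 passed the filter on low counts through DMSO libraries 2 and 3 alone. The direction of its -4.23 was therefore set by the filter. B2M was 0.01 with upper-quartile scaling and 0.05 without both libraries numbered 3. TAP1 was 0.01 with upper-quartile scaling and 0.03 in the 3 TPM fits. PSMB10 was 0.01 without both libraries numbered 1. RLE scaling, limma-voom and removal of immunoglobulin genes with the 20 largest genes changed no sign or call of the 30 tested members. Depth limits the class II genes in library 1, where HLA-DRB1 and HLA-DPB1 rested on 2 to 4 estimated counts.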

Other observations

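Of the 10 plasma cell factors and markers, 2 were higher and 2 lower with Mi-2. MZB1, a chaperone of immunoglobulin assembly, had 2117, 1914 and 1627 TPM in Mi-2 libraries and 1341, 1156 and 1064 TPM in DMSO libraries (0.70 ± 0.11, edgeR adjusted p = 0.00576). IRF4, a transcription factor that plasma cells need, rose by 0.35 ± 0.09 (edgeR adjusted p = 0.0441), a call that held with 1 library left out only for DMSO library 1 (adjusted p up to 0.165). SDC1, the surface marker CD138, had 179, 150.5 and 168 TPM with Mi-2, below the 296, 255 and 233 TPM with DMSO (-0.69 ± 0.15, edgeR adjusted p = 0.0180). Its call was lost without Mi-2 library 2 (0.0563) or DMSO library 2 (0.0692). CD38, a surface enzyme, had 47.5, 50.9 and 32.5 TPM with Mi-2 and 74.7, 107 and 55.2 TPM with DMSO (-0.86 ± 0.21, edgeR adjusted p = 0.0296), a call lost without Mi-2 library 1 (0.101), Mi-2 library 3 (0.0681) or DMSO library 2 (0.105). The class II repressor PRDM1 was not called (0.13 ± 0.11, edgeR adjusted p = 0.517).

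Of the 11 B-cell genes, 4 were tested and 1 was called. CD79B, a B-cell receptor subunit, had 71.2, 72.3 and 52.6 TPM with Mi-2, above the 49.4, 43.0 and 29.9 TPM with DMSO (0.75 ± 0.14, edgeR adjusted p = 0.0110, and 0.0513 without Mi-2 library 1). Its partner CD79A did not exceed 0.510 TPM with Mi-2 and 0.570 TPM with DMSO. Of 16 ligands of immune recognition 13 were tested, and the only call was ICOSLG, the costimulatory ligand of ICOS on T cells, with 2.76, 2.18 and 1.94 TPM with Mi-2 and 3.95, 4.27 and 2.84 TPM with DMSO (-0.67 ± 0.12, edgeR adjusted p = 0.0110). CD3E, a T-cell receptor subunit, was the only tested gene of 10 T and NK cell markers, at 41.5, 42.4 and 46.5 TPM with Mi-2 and 30.7, 29.3 and 32.7 TPM with DMSO (0.50 ± 0.11, edgeR adjusted p = 0.0180, and 0.0783 without DMSO library 2). None of the 13 myeloid markers passed the filter on low counts.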
